A study of Mus musculus with 6 samples.

Results

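Macrophages of the mouse testis were followed as 254 cell barcodes among 68155 that passed the filters, a share of 0.373% (95% Clopper-Pearson interval 0.328% to 0.421%, which covers counting error only). A barcode was taken when it held at least 500 transcripts counted as unique molecular identifiers (UMIs), under 20% of them from mt- genes, at least 5 UMIs and at least 0.5% of its UMIs from C1qa, C1qb, C1qc, Cd74, Csf1r, Lyz2, Tyrobp, Fcer1g, H2-Aa, H2-Ab1 and H2-Eb1, and under 5% from the spermatid genes Prm1, Prm2, Tnp1 and Tnp2. These 11 genes chose the barcodes, so their levels in them are a description. The share of these genes was 0.502% in the barcode just inside the bound and 0.497% in the one just outside, and 7 barcodes lay between 0.5% and 0.6% inside and 8 between 0.4% and 0.5% outside. Both testes of each male mouse, all of the inbred strain C57BL/6J, were dissociated whole and made into 1 library of droplet single-cell RNA sequencing. The 3 nicotine mice received the drug in their drinking water at 200 µg/mL over 8 weeks, starting at 3 weeks of age, while the 3 control mice had normal drinking water. Testes of both groups were taken at 11 weeks of age. The mouse is the replicate, with 3 in each group, and no transgene or Cre line was used. The gate held 41, 66 and 56 barcodes in the control and 21, 38 and 32 in the nicotine mice.

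Macrophages are the main immune cells of the testis. Those of the interstitium lie among the androgen-producing Leydig cells and are mostly low in major histocompatibility complex (MHC) class II, while those along the tubule wall are known for high MHC class II. C1qa, C1qb and C1qc encode the chains of C1q, which starts the classical complement pathway. MHC class II presents peptides to helper T cells: H2-Aa with H2-Ab1 form a surface dimer, H2-Eb1 encodes the beta chain of H2-E, the invariant chain Cd74 guides the dimers, and H2-DM loads the peptide. Surface protein was not measured here, so H2-Eb1 transcripts do not show an H2-E dimer. Promoters of MHC class II genes carry shared elements, the X box bound by the RFX complex and an inverted CCAAT element bound by NF-Y, on which the coactivator encoded by Ciita assembles.

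Promoters of MHC class II and C1q genes are shown first. MHC class II genes set the classes described here, and C1q genes with Csf1r divide the MHC II-high class further. C1qa, C1qb and C1qc were detected together in 212 of 254 barcodes, and H2-Aa, H2-Ab1, H2-Eb1 and Cd74 together in 41. 17 of 23 genes of the gate, the marker set and the MHC class II pathway matched RefSeq promoters (build GRCm38.p6). The 250 bases before the RefSeq start are printed 5′ to 3′ on the strand of the gene. Those of H2-Aa (chr17:34287824-34288073, minus strand) and H2-Eb1 (chr17:34305617-34305866, plus strand) follow, with exact matches in capitals of CTGATTGG, an inverted CCAAT element, and of AGCAAC, a core of the X box, searched on both strands.
H2-Aa: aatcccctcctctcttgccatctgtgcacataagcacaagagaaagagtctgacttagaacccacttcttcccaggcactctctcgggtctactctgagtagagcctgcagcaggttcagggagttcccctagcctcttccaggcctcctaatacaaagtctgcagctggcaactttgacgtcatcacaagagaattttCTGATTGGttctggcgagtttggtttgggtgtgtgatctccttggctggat
H2-Eb1: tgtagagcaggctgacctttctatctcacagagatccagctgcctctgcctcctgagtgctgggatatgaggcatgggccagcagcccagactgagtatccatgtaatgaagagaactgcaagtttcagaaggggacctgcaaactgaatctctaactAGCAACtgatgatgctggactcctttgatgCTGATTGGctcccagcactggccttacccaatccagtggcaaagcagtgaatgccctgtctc
The inverted CCAAT letters began 51 bases before the start in H2-Aa and 62 in H2-Eb1, and the X box core 92 bases before the start in H2-Eb1. Among 32851 promoters cut to the same length, 3.83% held CTGATTGG and 12.2% held AGCAAC. For C1qb (chr4:136886201-136886450, minus strand) and C1qc (chr4:136892915-136893164, minus strand) the capitals mark GAGGAA, the core bound by the myeloid factor PU.1, or its reverse complement where it lies on the other strand.
C1qb: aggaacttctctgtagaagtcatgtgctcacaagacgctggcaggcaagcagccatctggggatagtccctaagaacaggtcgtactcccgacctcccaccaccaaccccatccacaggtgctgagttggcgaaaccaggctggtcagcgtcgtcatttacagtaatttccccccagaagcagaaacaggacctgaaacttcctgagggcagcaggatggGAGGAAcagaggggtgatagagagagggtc
C1qc: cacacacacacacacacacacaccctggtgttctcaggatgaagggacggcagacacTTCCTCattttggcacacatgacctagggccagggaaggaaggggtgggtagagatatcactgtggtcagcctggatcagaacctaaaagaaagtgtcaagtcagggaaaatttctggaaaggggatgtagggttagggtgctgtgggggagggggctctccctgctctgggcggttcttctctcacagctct
This core began 30 bases before the start in C1qb and 193 in C1qc, and 23.3% of promoters held it. A match describes these letters and is not a measured binding site. C1qa (chromosome 4, 136895917 to 136898803), C1qc and C1qb are protein-coding genes in a row on the minus strand in GRCm38, and H2-Ab1 (chromosome 17, 34257689 to 34269419, plus strand), H2-Aa and H2-Eb1 lie together on chromosome 17.

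The libraries held 67853893 to 88329607 UMIs over 10823 to 12317 barcodes, and the macrophage gate 54502 to 198360 UMIs per mouse. The median gated barcode held 2504.5 UMIs and 1547 genes, with 1.97% of UMIs from mt- genes and 0.66% from spermatid protamine and transition protein genes. No gated barcode occurred in 2 libraries, against 25 to 54 shared barcodes per pair of libraries over all cells. The doublet caller Scrublet called none of the 254 by its own threshold, which called only 0% to 1.29% of all filtered barcodes per library. Its highest scores, at 0.8% per 1000 barcodes, took in 3, 14 and 15 of the 41, 66 and 56 gated barcodes of the control mice. In the nicotine mice they took in 18, 7 and 4 of 21, 38 and 32, so 18 of the 21 in nicotine replicate 1. Over all filtered barcodes the same scores took in 8.69% to 9.98% per library. 11 gated barcodes also met a Leydig gate (5 Leydig genes at 1% of UMIs or more) and 1 a Sertoli gate, and 8 held over 10000 UMIs. Counts of called genes are given with and without the highest Scrublet scores and with and without the barcodes of 2 gates. None is given without the 8 barcodes over 10000 UMIs.

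The gated barcodes carried a macrophage transcriptome beyond the genes of the gate. The 20 genes outside it with the highest ratio of pooled level to all other barcodes, among those at 200 counts per 1000000 UMIs (CPM) or more, included Cybb, Trem2, Ccl8, Pf4, Ms4a7, Ctss, Clec4n, Wfdc17, Cbr2, Ccl24, Plek, Laptm5, Cd68, Stab1, Mrc1, Cd209f, Folr2, Ctsc and Grn. Among them were Cybb (the catalytic chain of the phagocyte NADPH oxidase), Trem2 (a lipid-sensing receptor), Cd68 and Laptm5 (lysosomal membrane proteins), Mrc1 (the mannose receptor), Stab1 (a scavenger receptor), Folr2 (a folate receptor of resident macrophages) and Ccl8, Ccl24 and Pf4 (chemokines). Pf4 stood at 1490.0 CPM in 208 of 254 barcodes, against 0.755 CPM in all other barcodes. Trem2 stood at 468 against 0.23 CPM, Cybb at 200.3 against 0.0876 CPM and Ctss, the cathepsin that trims the invariant chain, at 734 against 0.377 CPM. These values describe barcodes chosen by correlated genes and carry no test.

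Of the 10 markers set for macrophages, C1qa was detected in 234 barcodes, C1qb in 228 and C1qc in 223, at 3480.1, 2176 and 2831 CPM. All 3 chains were detected together in 212 barcodes. C1qa thus had a UMI in 92.1% of gated barcodes (median 2504.5 UMIs) against 0.33% of Sertoli-gate barcodes (median 1002 UMIs), which should lack it, and thinning to 1000 UMIs gave 90.5% and 0.476%. Sertoli-gate barcodes were taken only from outside the macrophage gate. For the genes of the gate this contrast is therefore partly set by the rule and is a description. Csf1r, the receptor for the growth factor CSF1 on which macrophages depend, had a UMI in 59.1% of gated barcodes, and in 32.5% of the 231 that could be thinned (23 were shallower), against 0.0599% of Sertoli-gate barcodes. Mrc1 had a UMI in 71.3% (54.5% thinned, 0.989% of Sertoli-gate barcodes) at 994 CPM. Cx3cr1, the fractalkine receptor, had one in 44.5% (28.1% thinned, 1.26% of Sertoli-gate barcodes) at 296 CPM. The 4 MHC class II genes were detected in fewer barcodes: Cd74 in 85, H2-Aa in 69, H2-Eb1 in 63 and H2-Ab1 in 59. In Sertoli-gate barcodes the shares with a UMI were 0.12%, 0.03%, 0.12% and 0.36% in the same order. Mrc1 and Cx3cr1 are the markers of this set that the gate did not use.

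Markers of other blood cells varied in level. The 11-gene monocyte list summed to 764 CPM, most of it from S100a6 (317 CPM), S100a4 (171 CPM), Ifitm3 (125 CPM) and Clec4a1 (93 CPM), and the 8-gene B cell list to 234 CPM, most of it from Ighm (156 CPM in 86 barcodes). Of the monocyte list, Ly6c2, Vcan and Chil3 had no UMI among 773839 UMIs, which allows up to 3.88 CPM, and Ccr2, the receptor that brings monocytes into tissue, had 13 UMIs in 8 barcodes. Lyve1, a receptor of perivascular macrophages, had 3 UMIs, and Timd4, of long-lived resident macrophages, stood at 33.6 CPM. No barcode held 2 of the neutrophil, mast cell or T and NK cell markers. S100a8, S100a9, Ly6g, Mcpt4, Tpsb2, Cma1, Cd3e and Cd8a were all at 0. Summed levels were 25.8 CPM for the 8 neutrophil markers, nearly all of it Csf3r, 59.4 CPM for the 7 mast cell markers, nearly all of it Kit, and 2.58 CPM for the 7 T and NK cell markers. At least 2 dendritic cell markers were seen in 4 barcodes, all in control replicate 3, and 2 B cell markers in 1.

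The split by MHC class II was made on the summed share of Cd74, H2-Aa, H2-Ab1 and H2-Eb1. 152 of 254 barcodes had none of their UMIs, and the highest share was 5.59%. Barcodes with at least 0.5% and at least 5 such UMIs were called MHC II-high, those under 0.1% MHC II-low and the rest intermediate. This gave 42 MHC II-high (16.5%, 95% interval 12.2% to 21.7%), 32 intermediate and 180 MHC II-low barcodes (70.9%, 64.9% to 76.4%). Near the bounds lay 5 between 0.4% and 0.5%, 4 between 0.5% and 0.6%, 11 between 0.05% and 0.1% and 13 between 0.1% and 0.15%. All 4 genes were detected together in 41 barcodes, 36 of them MHC II-high. Median depth was 2259 UMIs in MHC II-high, 1914.5 in intermediate and 2606.5 in MHC II-low barcodes, and the median mt- share was 1.11%, 1.69% and 2.17%.

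The MHC II-high class was not of 1 kind. 28 of its 42 barcodes held at least 2 UMIs of C1qa, C1qb, C1qc and Csf1r, and 14 did not, of which 12 had none. These 14 are called MHC II-high barcodes without C1q, and the 28 those with C1q. In the MHC II-low class 177 of 180 held at least 2, and in the intermediate class 31 of 32. Barcodes without C1q thus entered the gate mostly through the MHC class II genes themselves. They occurred in every mouse, 3, 3 and 4 in the control and 2, 1 and 1 in the nicotine mice. The division by C1q was made after the values were seen and is a description.

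**Figure D1:**
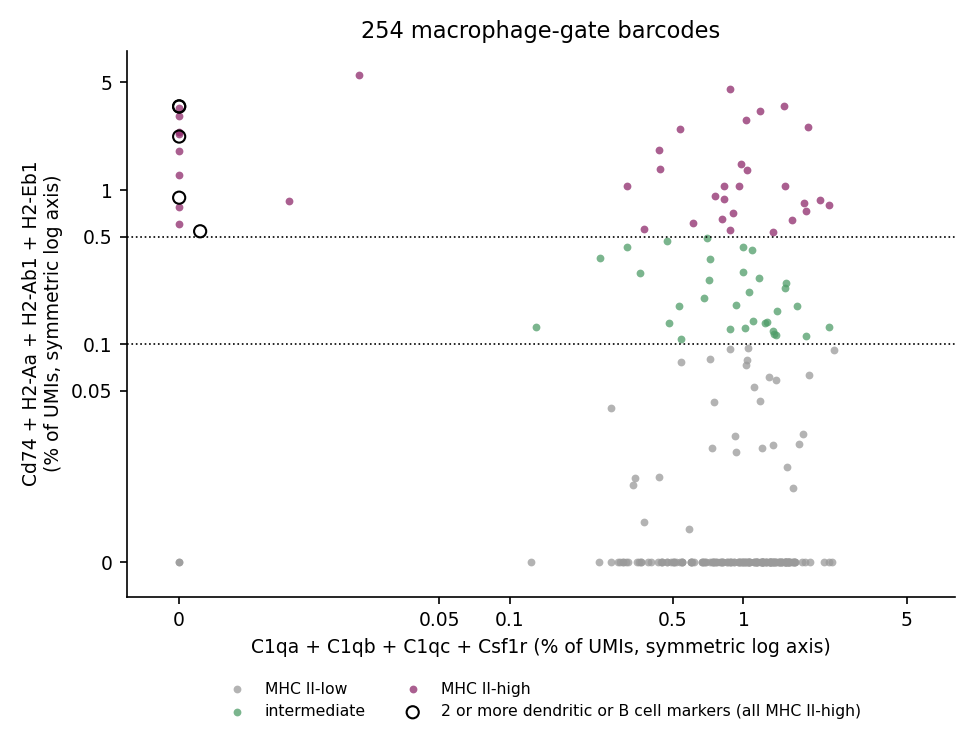
Each point is 1 of the 254 gated barcodes. The x axis is the share of UMIs from C1qa, C1qb, C1qc and Csf1r and the y axis the share from Cd74, H2-Aa, H2-Ab1 and H2-Eb1, both on symmetric log axes in percent, with dotted lines at the class bounds of 0.1% and 0.5%; open circles mark the 5 barcodes with at least 2 dendritic or B cell markers. Most MHC II-high barcodes lie with the rest on the x axis, and 12 of the 42 lie at 0.

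Among the 28 MHC II-high barcodes with C1q, some macrophage genes stood near their level in MHC II-low barcodes and others below it. Apoe, the lipid carrier, stood at 11681 CPM in them and at 13357 CPM in MHC II-low barcodes, Mrc1 at 967 and 1044 CPM, and Trem2 at 537 and 505 CPM. Their resident macrophage list summed to 5664 CPM against 8645 CPM, with F13a1 at 645 against 1508 CPM. Chemokine transcripts were uneven among them: Ccl4 stood at 675 against 33 CPM but in 6 barcodes, Ccl3 at 461 against 71.1 CPM in 9, and Ccl12 at 461 against 46.8 CPM in 5. Cxcl10, the interferon-induced chemokine, reached 645 CPM from 2 barcodes, and Cxcl13, which attracts B cells, 491 CPM from 1. The peptide-loading genes H2-DMa (384 against 69.4 CPM) and H2-DMb1 (215 against 45.1 CPM), which took no part in the split, were also above the MHC II-low level. Of the 65146 UMIs of the 28 barcodes, 9462 came from 1 barcode of control replicate 1, with only 2 UMIs of C1q and Csf1r. The 8-gene Leydig list summed to 6938 CPM in the 28 barcodes and 7476 CPM in MHC II-low barcodes. Levels without that barcode are not given.

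The 14 MHC II-high barcodes without C1q lacked genes of resident macrophages. Apoe was at 32.5 CPM, Mrc1 at 16.3, and F13a1, Stab1, Folr2, Pf4 and Cx3cr1 were at 0, where a count of 0 allows up to 48.8 CPM. Their leading genes against MHC II-low barcodes included Cytip (537 CPM in 10 barcodes), which regulates leukocyte adhesion, Alcam (439 CPM in 8), an adhesion molecule, Lsp1 (439 CPM in 10), a leukocyte actin-binding protein, and Il1b (374 CPM in 6), the inflammatory cytokine. Ccr2 was found in 7 of the 14 and in none of the 180 MHC II-low barcodes. The dendritic cell genes Flt3, Xcr1 and Clec9a were each found in 3 of the 14 and nowhere else in the gate, and Igkc, an immunoglobulin light chain, in 3. The 7 dendritic cell markers summed to 407 CPM in these barcodes, 46.1 in those with C1q and 19.1 in MHC II-low barcodes. Of the 61454 UMIs of the 14 barcodes, 24777 came from 1 barcode of control replicate 3. Another 5127, 5119 and 2520 came from the other barcodes of that mouse with dendritic cell markers. The pooled levels here thus lean on 1 mouse, and levels without it are not given. For these 14 barcodes the markers went against the label of macrophages.

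Intermediate barcodes resembled the MHC II-low class in C1qa (4094 and 3727 CPM), Mrc1 (1454 and 1044 CPM) and Cx3cr1 (409 and 298 CPM). Ccl8, a monocyte-attracting chemokine, led their difference at 2061 against 451 CPM, with a UMI in 20 of 32 barcodes. With 70844 UMIs in all, single genes of this class rest on few counts. Among the leading genes of MHC II-low barcodes were Agt, Hsd3b1 and Star, of which Hsd3b1 and Star serve steroid synthesis in Leydig cells.

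Secreted factors and their receptors were spread over the gate as follows, as pooled levels. The chemokine Ccl2 stood at 167 CPM in 61 barcodes, Ccl24 at 216 in 101 and Ccl8 at 580.2 in 101. Of the growth factors, Igf1, which acts on Leydig cells, stood at 397 CPM and Gas6, a ligand of the TAM receptors that clear dead cells, at 341 CPM, while Vegfa had no UMI. Cytokine transcripts were found in few barcodes: Tnf stood at 75 CPM in 33 barcodes, Tgfb1 at 102 in 65, Il1b at 53 in 13 and Il10 at 12.9 in 8, while Il6 and Il1a had 1 UMI each and Il1rn none. Beyond C1q, the anaphylatoxin receptors C3ar1 and C5ar1 stood at 128 and 71.1 CPM, while C3 itself had 4 UMIs. Among iron-handling genes, the haem-degrading Hmox1 stood at 354 CPM and the iron exporter Slc40a1 at 173 CPM. The antibody receptors Fcgr3 and Fcgr2b stood at 219.7 and 189 CPM.

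Other genes of antigen presentation divided by class. H2-DMb2, H2-Ob and H2-Eb2 were found mainly in MHC II-high barcodes without C1q, at 163, 97.6 and 32.5 CPM, against 3.47, 1.73 and 0 CPM in MHC II-low barcodes. H2-Oa had no UMI, and Ciita had 2. Ctss stood at 1075 CPM in MHC II-high barcodes with C1q, 277 in those without, 889 in intermediate and 725 in MHC II-low barcodes. The thiol reductase Ifi30 stood at 199.6, 195, 169 and 98.9 CPM in the same order. MHC class I was found in all classes, with H2-K1 at 1704, 667, 1581 and 900.4 CPM and its light chain B2m at 1105, 537, 1101 and 973 CPM. Cd86, a costimulatory ligand for T cells, stood at 215, 358, 423 and 344 CPM, while its relative Cd80 was found in 11 and the ligand Cd274 in 4 of 254 barcodes. Irf8 stood at 338, 1074, 113 and 139 CPM, so its level was highest in MHC II-high barcodes without C1q. Spi1, which encodes PU.1, stood at 322, 130.2, 268 and 217 CPM.

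Genes of lipid and iron handling were lowest in MHC II-high barcodes without C1q for the members given here. The cholesterol exporter Abca1 stood at 752 CPM in MHC II-high barcodes with C1q and 815 CPM in MHC II-low barcodes, and had no UMI in those without C1q. Lpl, lipoprotein lipase, stood at 261 and 95.4 CPM and was also at 0 without C1q. The iron store chain Ftl1 stood at 2978, 3520.2 and 862 CPM in the same 3 sets, and the bilirubin-forming Blvrb at 445, 611 and 16.3 CPM. Slc40a1 stood at 61.4 against 206 CPM. Interferon-induced genes were sparse, apart from Bst2 at 309 CPM and Ifitm3 at 125 CPM, with Ifit1 in 4 and Irf7 in 2 barcodes. Of the proliferation list, Mki67 was found in 6 barcodes and Top2a stood at 29.7 CPM, below the 49.3 CPM of all other barcodes.

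**Figure D2:**
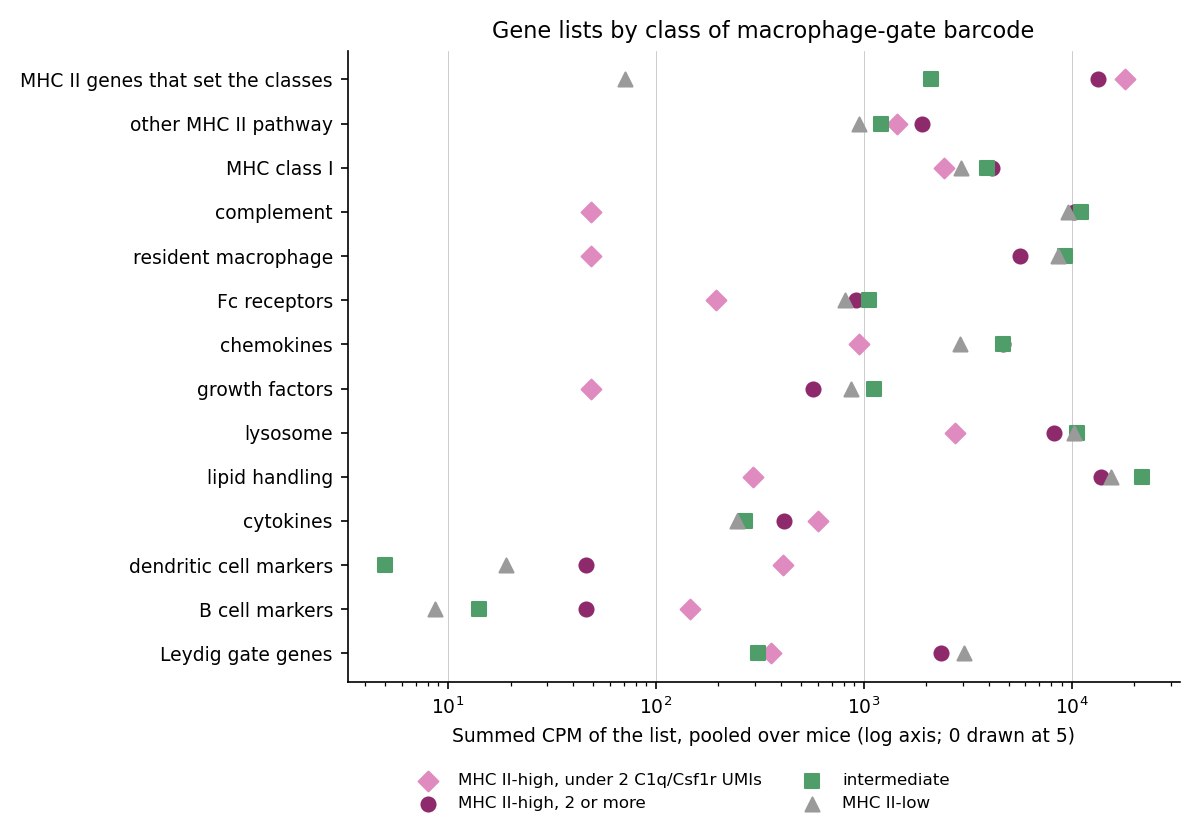
Summed CPM of each gene list (log axis), pooled over the 6 mice, in MHC II-high barcodes with fewer than 2 UMIs of C1q and Csf1r (14 barcodes), MHC II-high barcodes with 2 or more (28), intermediate (32) and MHC II-low barcodes (180). The resident macrophage, complement and growth factor lists were each at 48.8 CPM in the 14 barcodes without C1q. The complement list holds C1qa, C1qb and C1qc, by which these barcodes were set apart, so its low level there follows from that choice.

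Transcripts of nicotinic acetylcholine receptor subunits, the direct targets of nicotine, were barely found in the gate. 10 of 16 subunit genes had no UMI, and Chrna7, the subunit best known in macrophages, had 2 UMIs in 2 barcodes. Chrne stood at 84 CPM, below the 255 CPM of all other barcodes and the 142 CPM of Sertoli-gate barcodes, and above the 33.9 CPM of Leydig-gate barcodes.

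MHC II-high and MHC II-low barcodes were then compared within mice, to describe what changes with MHC class II among genes that did not set the classes. The UMIs of each class of a mouse were added up, and the sums were fitted by edgeR's quasi-likelihood method with a term for the mouse. Of 522 genes outside the gate, 86 (16.5%) passed a Benjamini-Hochberg adjusted p of 0.05, 43 (8.24%) higher and 43 (8.24%) lower in MHC II-high barcodes. The adjustment ran over the 537 genes of the fit, which include the genes that set the classes. Adjusted over the 522 alone, an alternative added after seeing the data, the same 86 genes passed. The class sums were small, 10837 to 43962 UMIs from 5 to 11 MHC II-high barcodes per mouse. Single barcodes weighed on them. In control replicate 3, the 4 barcodes with dendritic cell markers, all without C1q, held 24777, 5127, 5119 and 2520 of the 43962 UMIs. In control replicate 1, 1 barcode with 2 UMIs of C1q and Csf1r held 9462 of 23071 UMIs. The 14 barcodes without C1q bear on this count: with at least 2 UMIs of C1q and Csf1r required, 4 of 299 genes (1.34%) passed, or 2 (0.669%) when p was adjusted over those 299 alone, and 69 of the 72 earlier calls still tested kept their sign with a median of 0.46 of the earlier log2 difference. With the highest Scrublet scores removed the count was 17, and without the 5 barcodes with dendritic or B cell markers 52. Left out in turn, nicotine replicate 1 brought the count to 6, nicotine replicate 3 to 21, nicotine replicate 2 to 52 and control replicate 1 to 53.

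The genes that set the classes are given as a description. Cd74 stood at 4421, 5850.2, 4663, 6568, 5998 and 4943 CPM in the MHC II-high barcodes of the 6 mice (controls first) and 26.9, 45.8, 21, 64.1, 55.1 and 21.3 CPM in the MHC II-low barcodes. H2-Aa stood at 3294, 5549, 3753, 5757, 3045 and 4790.5 CPM in the MHC II-high barcodes of the 6 mice (controls first) and 8.97, 0, 21, 0, 0 and 0 CPM in the MHC II-low barcodes. The classes do not overlap, since the split was made on these genes.

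Among genes higher in MHC II-high barcodes, Cd52, a glycoprotein of mature leukocytes, showed the largest difference of those outside the gate. Cd52 stood at 607, 817, 569, 1378.5, 554 and 456 CPM in the MHC II-high barcodes of the 6 mice (controls first) and 8.97, 13.1, 48.9, 0, 66.2 and 85.1 CPM in the MHC II-low barcodes, without overlap (log2 difference 4.15 ± 0.54 (SE), adjusted p = 0.000794, edgeR). In the barcodes with and without C1q, it stood at 522 and 862 CPM. Irf8, a transcription factor of macrophages and dendritic cells, stood at 737, 301, 842, 649, 1015 and 608 CPM in the MHC II-high barcodes of the 6 mice (controls first) and 170.4, 150.4, 119, 64.1, 143 and 128 CPM in the MHC II-low barcodes. It was higher in 6 of 6 mice, without overlap (log2 difference 2.25 ± 0.33 (SE), adjusted p = 0.00147). Cd52, Irf8 and Selenop passed under each left-out mouse, while F13a1, Btg1 and Btg2 did not without nicotine replicate 1. Under the stricter gate Selenop was still called, while Cd52 and Irf8 were not among the called genes. Only 72 of the 86 calls were tested there. Both genes stood higher in MHC II-high barcodes without C1q than in those with C1q, as given above. The antiproliferative genes Btg1 and Btg2 were higher in 6 of 6 mice, by 1.21 ± 0.24 and 1.18 ± 0.23 on the log2 scale. Ribosomal protein genes were higher as a group: 38 of 80 tested were called higher, beside 8.24% of all genes tested, and none lower, with a median log2 difference of 0.54 beside -0.03 over all genes tested. Among them Rps19 went from 568 ± 52.8 CPM (SD over 6 mice) in MHC II-low to 1428 ± 344 CPM in MHC II-high barcodes, and Rps26 from 251 ± 71.5 to 741 ± 319 CPM. In contrast, 8 of 10 mt- genes were called lower, with a median of -1.12. Neither group had a call under the stricter gate.

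Of the resident macrophage list, some genes fell in MHC II-high barcodes. Of the 17 genes of that list, 9 passed the filter on low counts, all 9 were below 0, and 5 were called lower, beside 8.24% of all genes tested: F13a1, Folr2, Pf4, Gas6 and Stab1. Under the stricter gate 1 of 7 was called. The gate bears on this comparison. MHC II-low barcodes had to enter it mainly through C1q, Csf1r, Lyz2, Tyrobp or Fcer1g. MHC II-high barcodes could enter through MHC class II genes alone. The list summed to 48.8 CPM in MHC II-high barcodes without C1q, 5664 in those with C1q and 8645 in MHC II-low barcodes. How much of the fall follows from this entry was not tested. F13a1, the transglutaminase factor XIII A chain, stood at 173, 645, 114, 324, 738 and 456 CPM in the MHC II-high barcodes of the 6 mice (controls first) and 1193, 1302, 1753, 1988, 1422.5 and 2022 CPM in the MHC II-low barcodes, without overlap (log2 difference -2.20 ± 0.33 (SE), adjusted p = 0.00182). Selenop, the selenium transport protein, showed the largest fall among called genes. It stood at 607, 602, 68.2, 324, 369 and 456 CPM in the MHC II-high barcodes of the 6 mice (controls first) and 1722, 2243, 2005, 2148, 1731 and 1894 CPM in the MHC II-low barcodes (log2 difference -2.46 ± 0.32 (SE), adjusted p = 0.000794). Pf4 fell by 1.64, Stab1 by 1.81 and Gas6 by 1.92 on the log2 scale, each in 6 of 6 mice. Mrc1 (log2 difference -1.40 ± 0.46 (SE), adjusted p = 0.0584) and Cx3cr1 (log2 difference -0.46 ± 0.44 (SE), adjusted p = 0.515) did not pass. Control replicate 3 was the lowest mouse for Selenop, F13a1 and Pf4 in the MHC II-high class, and held the 4 barcodes with dendritic cell markers.

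Lysosomal genes were also lower, though with no call among 9 tested under the stricter gate adjusted outside the gate. The same difference in entry to the gate applies to them. Their list summed to 2734 CPM in MHC II-high barcodes without C1q, 8212 in those with C1q and 10312 in MHC II-low barcodes. Of 16 on the list, 13 were tested, 9 were called lower, beside 8.24% of all genes tested, and none higher: Cd63, Ctsb, Lamp1, Ctsd, Grn, Lgmn, Ctsc, Ctsl and Hexa, with a median log2 difference of -1.16. Cd63, a tetraspanin of late endosomes, went from 887 ± 87.4 to 267 ± 205 CPM (log2 difference -1.85 ± 0.39 (SE), adjusted p = 0.0141), and the protease Ctsd from 496 ± 136 to 179 ± 83.7 CPM (log2 difference -1.60 ± 0.42 (SE), adjusted p = 0.0265). Both tested growth factors fell, Igf1 by 1.63 with 5 of 6 mice lower, and Gas6. Apoe fell by 1.16 with 5 of 6 mice lower (adjusted p = 0.035). Ctss, which acts on the invariant chain, was 786 ± 226 CPM in MHC II-low and 797 ± 347 CPM in MHC II-high barcodes and did not pass (log2 difference -0.10 ± 0.31 (SE), adjusted p = 0.878).

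Under the stricter gate Selenop (log2 difference -1.56) and F13a1 (-1.24) were lower, with edgeR adjusted p values of 6.48e-05 and 0.00267 over all genes of the fit and of 0.000309 and 0.00764 over the 299 outside the gate. Cd63 (log2 difference -1.18) and the MHC class I heavy chain H2-K1 (0.88) passed only with the class-setting genes in the adjustment, at 0.0457 and 0.0499, and stood at 0.0921 each without them. Among all gated barcodes H2-K1 did not pass (log2 difference 0.36 ± 0.21 SE, edgeR adjusted p = 0.282). Over the 299 genes, the resident macrophage list then had 1 call of 7 tested, F13a1, and the lysosome list 0 of 9, with median log2 differences of -0.47 and -0.40.

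**Figure D3:**
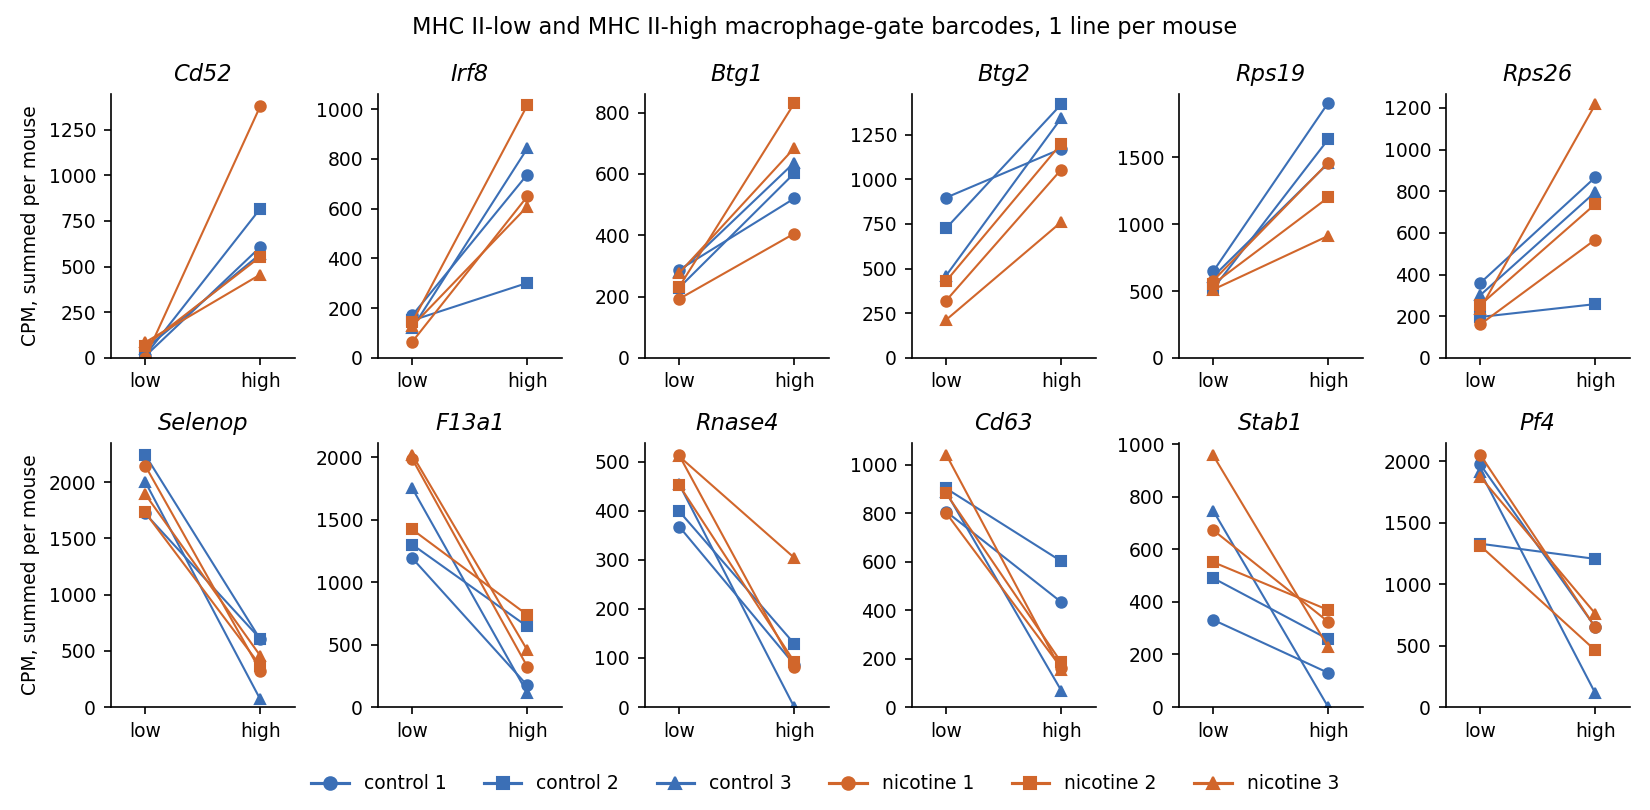
CPM of 12 genes summed over the MHC II-low and MHC II-high barcodes of each mouse (y axes start at 0 and differ between panels; 1 line per mouse, control blue, nicotine orange). The 6 genes of the upper row rose and the 6 of the lower row fell from low to high in every mouse; Selenop was between 68.2 and 607 CPM in all MHC II-high sums and at 1722 CPM or more in all MHC II-low sums.

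Nicotine and control mice were compared for the number of macrophages. As a share of filtered barcodes, gated barcodes made up 0.343%, 0.612% and 0.459% in the control mice and 0.193%, 0.351% and 0.277% in the nicotine mice. The mean was 0.472% ± 0.135 in control and 0.274% ± 0.0789 in nicotine mice (SD, 3 mice per group), and the groups overlapped, since nicotine replicate 2 lay above control replicate 1. The difference did not pass a two-sided exact permutation test (p = 0.2, adjusted over the 4 comparisons of this kind p = 0.6), which cannot go below 0.1 for 3 against 3 mice. Among somatic barcodes only, the share was 4.12%, 8.68% and 5.71% in the control mice and 3.98%, 6.46% and 5.1% in the nicotine mice (exact permutation p = 0.6). All somatic barcodes together made up 8.33%, 7.05% and 8.04% in the control mice and 4.86%, 5.44% and 5.42% in the nicotine mice, without overlap between groups (exact permutation p = 0.1). From shares of barcodes, fewer macrophages and more cells of other kinds cannot be told apart.

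The balance of the classes did not pass this test either. Of the gated barcodes, those that were MHC II-high made up 17.1%, 16.7% and 14.3% in the control mice and 23.8%, 13.2% and 18.8% in the nicotine mice, from 5 to 11 barcodes per mouse (exact permutation p = 0.5). The interval of nicotine replicate 1 alone ran from 8.22% to 47.2% (Clopper-Pearson). The share of MHC II-low barcodes averaged 72.9% ± 4.12 in control and 67.1% ± 6.02 in nicotine mice (SD, 3 mice per group). Median UMIs per gated barcode were 2989, 2361.5 and 2583 in the control mice and 2619, 2479 and 1941 in the nicotine mice (exact permutation p = 0.5).

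**Figure D4:**
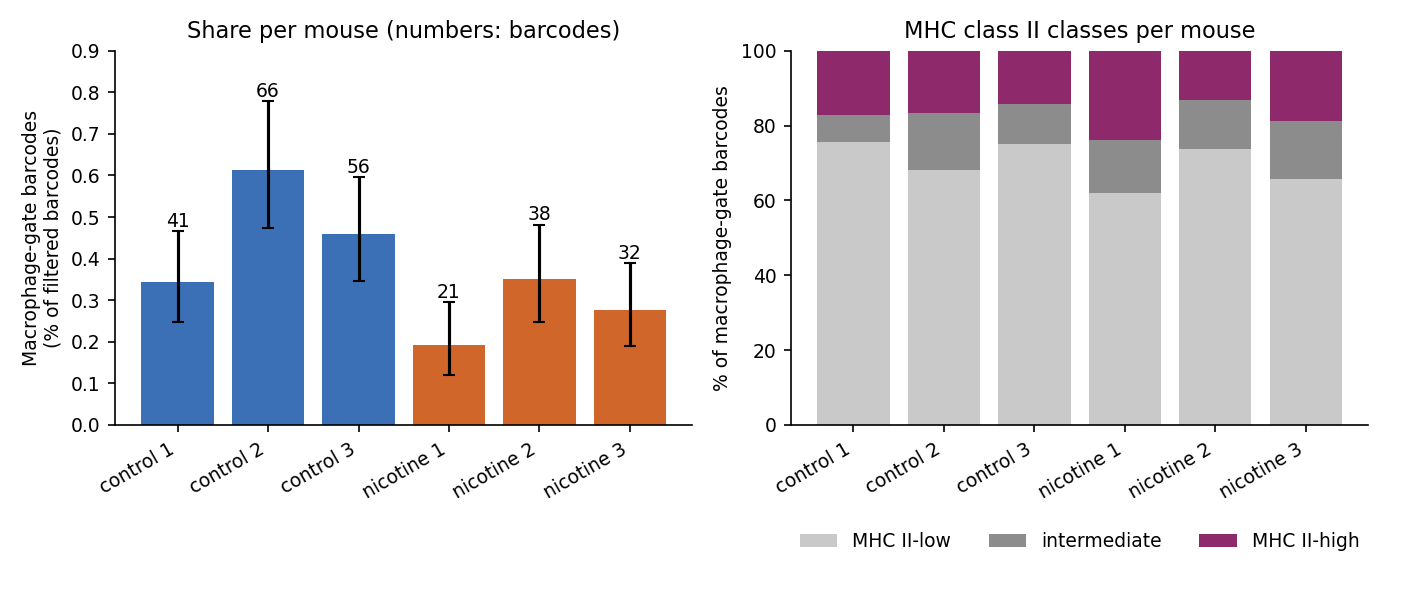
Left, gated barcodes as a percent of filtered barcodes in each mouse, with 95% Clopper-Pearson intervals and the number of barcodes above each bar. Right, the percent of gated barcodes that were MHC II-low, intermediate and MHC II-high; the MHC II-high share lay between 13.2% and 23.8% in the 6 mice.

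No gene passed the test between nicotine and control macrophages. Of 2735 genes tested in the sums over all gated barcodes of each mouse, 0 (0%) passed with edgeR's quasi-likelihood test, with 72 at an unadjusted p under 0.05, and 0 with DESeq2, with 22. In simulated counts of this size the test recovered 26.7% of genes changed 2-fold and 91.5% of those changed 4-fold. The 5 smallest p values belonged to Dbil5, Btg2, Tssk6, Cst8 and Ephx1, all lower in nicotine mice. Btg2 stood at 939, 821 and 771 CPM in the control mice and 532, 564 and 324 CPM in the nicotine mice, without overlap (log2 difference -0.87 ± 0.24 SE, adjusted p = 0.997). In Leydig-gate barcodes of the same libraries Btg2 stood at 849.6 ± 157 CPM in control and 487 ± 87.1 CPM in nicotine mice. Dbil5 and Tssk6, both genes of haploid germ cells, stood at 637 ± 133 CPM in control and 356 ± 22.6 CPM in nicotine mice and at 125 ± 20 CPM in control and 46.3 ± 11.4 CPM in nicotine mice. Ephx1, an epoxide hydrolase, stood at 268 ± 72.8 CPM in control and 93.8 ± 76.7 CPM in nicotine mice.

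The markers of the gate showed no call in either direction. C1qa stood at 3247, 3830.2 and 3029.8 CPM in the control mice and 3284, 3756 and 3959 CPM in the nicotine mice, with overlapping groups (log2 difference 0.07 ± 0.17 SE). C1qc stood at 2555, 2912 and 2516 CPM in the control mice and 3156, 3001 and 3547 CPM in the nicotine mice, without overlap but not past the test (0.23 ± 0.17). Csf1r stood at 362 ± 54.1 CPM in control and 399 ± 30.9 CPM in nicotine mice, and Cx3cr1 at 295 ± 30.7 CPM in control and 300.1 ± 10.6 CPM in nicotine mice. The 4 MHC class II genes had log2 differences of 0.18 to 0.32, and nicotine replicate 2 was the lowest mouse and nicotine replicate 1 the highest for all 4. H2-Aa, for example, stood at 572, 734 and 882 CPM in the control mice and 1449, 356 and 1016 CPM in the nicotine mice. Cybb stood at 155 ± 47.5 CPM in control and 291 ± 39.8 CPM in nicotine mice, without overlap, and did not pass (log2 difference 0.87 ± 0.29 SE, adjusted p = 0.997).

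By list, none of 14 tested resident macrophage genes was called (median log2 difference -0.03), nor any of 15 lysosomal (0.06), 6 chemokine (-0.18), 5 complement (0.07) or 6 MHC class I genes (0.16), beside -0.03 over all genes tested. Of 17 immediate early genes, 15 were below 0 and none was called (median -0.17). Of 7 Leydig genes, 6 were below 0, also with no call (median -0.91).

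Transcripts of Leydig cells were present in the gate and are given beside this comparison. Of the UMIs of gated barcodes, the 5 genes of the Leydig gate made up 0.357%, 0.273% and 0.244% in the control mice and 0.0257%, 0.352% and 0.0118% in the nicotine mice. The barcodes that also met the Leydig or Sertoli gate, 3, 3 and 3 in the control and 0, 3 and 0 in the nicotine mice, held 11.4%, 12.8% and 12.9% of the control and 0%, 23.5% and 0% of the nicotine macrophage UMIs. Without them the share was 0.221%, 0.103% and 0.116% in the control mice and 0.0257%, 0.0635% and 0.0118% in the nicotine mice. The control mice then all lay above the nicotine mice (exact permutation p = 0.1, the smallest this design can give). In Sertoli-gate barcodes the same genes made up 0.0214%, 0.0231% and 0.0213% in the control mice and 0.0142%, 0.00398% and 0.0108% in the nicotine mice. Also without the barcodes of both gates, they made up 0.258%, 0.135% and 0.165% of MHC II-low UMIs in the control mice. In the nicotine mice the values were 0.00641%, 0.088% and 0.00851%. In MHC II-high barcodes they ran from 0% to 0.0304% over the 6 mice. With all gated barcodes kept, these genes summed to 7325, 86, 0, 81.1, 0 and 304 CPM in MHC II-high barcodes (controls first). In MHC II-low barcodes they then summed to 2996, 3486, 3332, 64.1, 4477 and 85.1 CPM.

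Without the 12 barcodes of both gates, 3 of 2220 genes (0.135%) passed in the nicotine comparison, all lower: Ptgds (prostaglandin D2 synthase), Agt (angiotensinogen) and Cyp17a1 (a steroidogenic enzyme). Ptgds stood at 2446, 1387 and 879.7 CPM in the control mice and 36.7, 11.3 and 0 CPM in the nicotine mice (log2 difference -6.69 ± 0.65 (SE), adjusted p = 0.000451, edgeR). Agt stood at 526, 462 and 370.4 CPM in the control mice and 18.3, 45.3 and 73.6 CPM in the nicotine mice (log2 difference -3.25 ± 0.38 (SE), adjusted p = 4.46e-06). Cyp17a1, itself a gene of the Leydig gate by which barcodes were removed, stood at 892, 503 and 439.9 CPM in the control mice and 73.4, 193 and 44.2 CPM in the nicotine mice (log2 difference -2.45 ± 0.41 (SE), adjusted p = 0.0173). The groups did not overlap for any of the 3. With all gated barcodes kept, nicotine replicate 2 was as high as the controls, at 3331 CPM for Ptgds, and leaving that mouse out alone gave 34 lower genes of 3658 (0.929%), Ptgds, Insl3, Star and Cyp17a1 among them. Leaving out both gave 4, with Prlr added. This removal was chosen after the values were seen.

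In Leydig-gate barcodes themselves, Ptgds stood at 11582 ± 2738 CPM in control and 11359 ± 1801 CPM in nicotine mice, Agt at 3925 ± 831 CPM in control and 4048 ± 233 CPM in nicotine mice and Cyp17a1 at 6940.1 ± 734 CPM in control and 6604 ± 939.7 CPM in nicotine mice, with overlapping groups. The number of Leydig-gate barcodes was 58, 84 and 71 in the control mice and 33, 37 and 40 in the nicotine mice. The part of these values in the difference between macrophages was not tested.

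**Figure D5:**
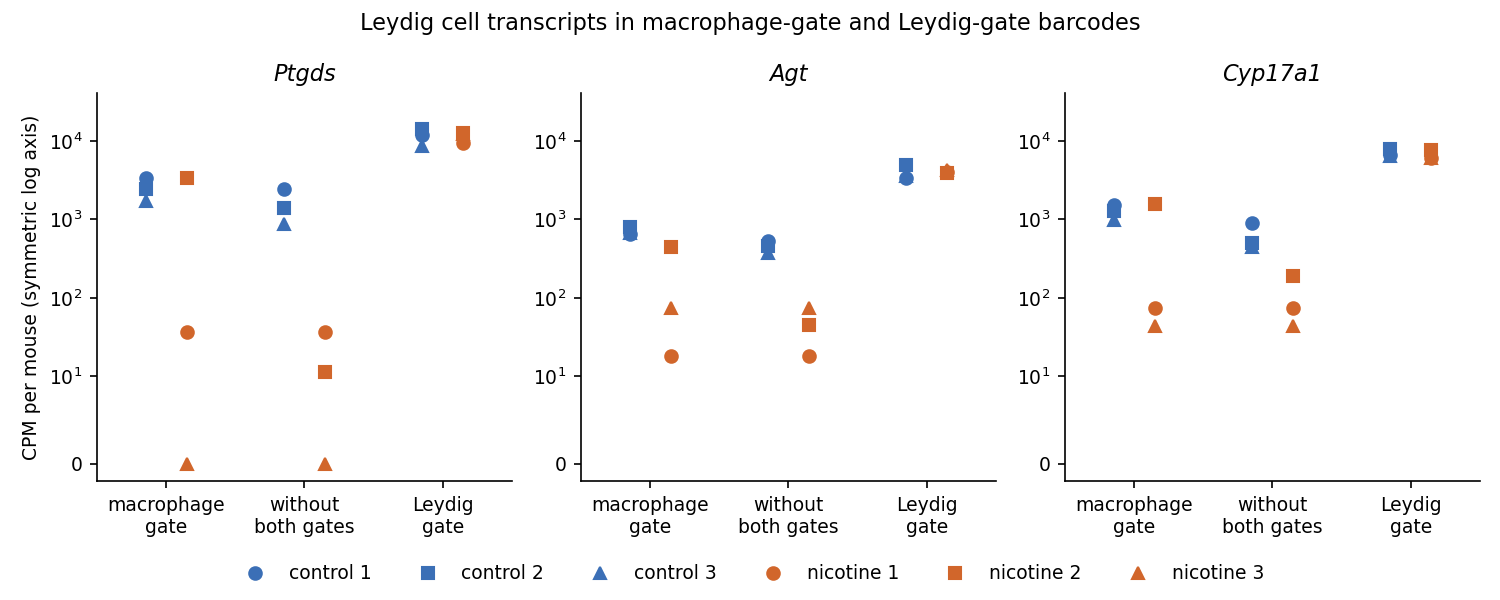
CPM per mouse (symmetric log axis) of Ptgds, Agt and Cyp17a1 in all macrophage-gate barcodes, in those that did not also meet the Leydig or Sertoli gate, and in Leydig-gate barcodes; control blue, nicotine orange. In the middle position the 3 control mice lie above the 3 nicotine mice for each gene, and in Leydig-gate barcodes the groups overlap.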

How the data were processed

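Testis cells were captured with 10x Genomics 3′ chemistry, per the labels' protocols, and the deposited values are UMI counts per gene and barcode, made with Cell Ranger 7.2.0 on GRCm38 (mm10), per the submitters' processing notes. For introns, the counting mode is not given in the sources used. Counts are 3′ tags, so CPM was not scaled by gene length. Filters, gate and classes were rebuilt from the counts and are given in the report, and no authors' cell annotation was used. The members and gene lists were chosen with earlier results of these data known. Sums of UMIs over the barcodes of a mouse, or of 1 class of a mouse, entered edgeR 4.0.16 (quasi-likelihood, TMM, filterByExpr, Benjamini-Hochberg over all genes tested). The nicotine test had no replicate term, and the MHC class II test had the mouse as a block. Its fit and adjustment held the gate and spermatid genes, which were left out of the counts of calls; adjusting over the other genes alone was an alternative added later. A planned minimum of 10 barcodes per mouse and class left 1 mouse, so the fit without a minimum is reported, a choice made after seeing the data. DESeq2 1.42.0 was an alternative. Exact permutation tests over mice were two-sided. Scrublet came from scanpy 1.11.5; its highest scores were removed only as an alternative, and no barcode was removed for the results reported. Named genes were the 20 with the highest ratio of level in the gate, up to 12 called genes in each direction of at least 50 CPM with the same direction in every mouse, up to 4 called members per list, and the 5 smallest p values where few were called. Other genes in the text are list members, or were chosen after their values were seen. Values of a few genes are not reported here. Gene coordinates came from GENCODE M21, in which 32158 of 32285 features were found. The edgeR fit was tested on simulated counts: of the genes called in the nicotine design, 6 of 108 were false, and 3 of 142 in the MHC class II design, where 53.8% of 2-fold and 99.0% of 4-fold changes were recovered. The P-values measure the spread between mice. Intervals and limits from a count of 0 cover counting error only.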

Additional observations from a re-analysis of the deposited data

How the results depend on the processing

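The count of genes called between MHC II-high and MHC II-low barcodes, 86, was 4 under the stricter gate, 2 under it when adjusted over genes outside the gate, 17 with the highest Scrublet scores removed, 302 with no filter on low counts and 52 without the 5 barcodes with dendritic or B cell markers. The adjustment over genes outside the gate was added after seeing the data. With no filter on low counts, 25 genes were called higher and 277 lower, beside 43 and 43 with it. That setting shared 45 of the 86 calls, and 70 of the 86 kept their sign. With 1 mouse left out the count ranged from 6 to 86. The count stayed within 1.5 times of 86 under the other alternatives, with 86 when adjusted over genes outside the gate, 105 by DESeq2 and 119 with no replicate block. It was 102 of 537, 58 higher and 44 lower, without the barcodes that also met the Leydig or Sertoli gate. That setting was added after seeing the data. The cause of these changes was not tested. Of the values of single genes named in this comparison, 369 kept direction and call and 104 kept direction but lost the call.

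The count between nicotine and control mice, 0, was 3 without the barcodes that also met the Leydig or Sertoli gate and 4 when nicotine replicate 2 was left out as well, both added after seeing the data, and ranged from 0 to 34 with 1 mouse left out. It was 0 with the replicate block, DESeq2, other size factors and no filter. The stricter gate and the removal of Scrublet scores left nicotine replicate 1 under 20 barcodes, so those fits held 5 mice.

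The log2 difference of the macrophage share of somatic barcodes ranged from -0.47 to 0.076 with 1 mouse left out, turning sign without control replicate 2. That of the MHC II-high share, 0.21, ranged from -0.0049 to 0.41, turning sign without nicotine replicate 1, and was -0.39 with the highest Scrublet scores removed. Correlations between control and nicotine mice of equal replicate number were -0.0175, -0.0263 and 0.153, beside -0.145 to 0.161 for the other pairs. They showed no pairing by replicate number, but 3 such pairs are too few to decide it. With the replicate block the macrophage share kept a log2 difference of -0.78, with an exact p of 0.25, the smallest that 3 pairs allow. The 254 barcodes limit single genes of the MHC II-high class to a few UMIs per mouse.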
